A study of Mus musculus with 36 samples.

Results

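The collagen chain genes of the mouse were followed in a chondrocyte cell line treated with the inflammatory cytokine IL-1β, with and without depletion of the ciliary protein IFT88. The members were the protein-coding rows of the count table whose symbol was Col, a number, the letter a and a number, which gave 44 of 53421 genes. The rule uses symbols and the gene type, and no measured value. Cells of a conditionally immortalised line of fibroblast-like chondrocytes, labelled as wild type, received a non-targeting siRNA pool (NT) or an siRNA pool against Ift88 (IFT88siRNA), at 50 nM by the labels and 10 nM by the methods. The cells were then harvested without IL-1β (0 h), or after IL-1β at 10 ng/ml had been present for 1, 2, 4, 8 or 24 h. There were 3 libraries for each of the 12 conditions, 36 in all, and every library came from this 1 line. Nothing in the labels says that the replicates came from separate cultures, so p-values measure the spread between these libraries, which may be technical. The only untreated cells were those at 0 h, so IL-1β and time in culture cannot be told apart at the later times.

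Collagens are secreted proteins in which chains wind around each other into a helix, and they form the main scaffold of connective tissue. Fibrillar collagens such as types I, II, III, V and XI make fibrils, type IV makes the network of basement membranes, type VI makes beaded filaments around cells, and FACITs such as types IX and XII sit on the surface of fibrils. Articular chondrocytes are known for types II, IX and XI, hypertrophic chondrocytes for type X and fibroblasts for types I and III, while IL-1β is known to lower cartilage collagen synthesis and raise matrix proteases.

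Total counts on genes were from 19337022 to 38304127 per library, with medians of 21672803.5 in NT and 25873754 in IFT88siRNA. Without molecular identifiers, depth bears on counting error and also on which genes have enough counts to be tested. Its effect on the results was not tested. The library furthest from its replicates was the third of IFT88siRNA at 8 h. The lowest correlation of log2 CPM between replicates was 0.991. Ift88 was at 5.83 to 10.2 CPM (counts scaled to the size of the library, with TMM factors) in the 18 NT libraries and at 1.43 to 3.10 CPM in the 18 IFT88siRNA libraries, with no overlap. Of 11 chondrocyte markers, 6 had a median of 1 TPM (a level per transcript length that sums to the same total in each library) or more. Sox9 had a median of 11.6 TPM and Comp of 16.1 TPM, but the cartilage markers Acan and Matn1 had medians of 0.0444 and 0.122 TPM and Col9a1 was listed at 0 in 25 of 36 libraries. All 10 fibroblast markers were at a median of 1 TPM or more, led by S100a4 at 1590 and Fn1 at 1400 TPM. Of 6 markers of hypertrophic chondrocytes and osteoblasts, 3 were at a median of 1 TPM or more, Col10a1 among them, and Ibsp and Sp7 were near 0. These lists include collagen members, among them Col1a1, Col1a2 and Col3a1 for fibroblasts. Defining macrophage markers were near 0 (Ptprc at most 0.161 TPM, Adgre1 at most 0.0406 TPM), apart from Cd68, and the summed endothelial list was at most 1.78 TPM.

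Where collagen genes stand next to each other, their starts can be shown. Col4a1 and Col4a2, the chains of the common type IV collagen, point away from each other on chromosome 8, and in GENCODE their first exons overlap. The strand of Col4a1 is printed from chr8:11312801-11312830 (RefSeq, GRCm38.p6, minus strand), and the capitals mark the 22 shared bases between the start of Col4a2 and the start of Col4a1.
Col4a1 and Col4a2: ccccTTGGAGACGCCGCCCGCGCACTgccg
The rarer type IV chains Col4a3 and Col4a4 are divergent on chromosome 1. The strand of Col4a4 is printed from chr1:82586820-82586950 (minus strand), and the capitals mark the 71 bases between the transcripts.
Col4a3 and Col4a4: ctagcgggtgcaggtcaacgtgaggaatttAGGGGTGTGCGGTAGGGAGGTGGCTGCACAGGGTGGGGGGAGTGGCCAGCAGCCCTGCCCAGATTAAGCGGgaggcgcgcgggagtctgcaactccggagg
The remaining pair, Col4a5 and Col4a6, has starts 1309 bases apart on chromosome X. The 250 bases before the RefSeq start are printed for 3 further members to which the results return. Col27a1 and Col8a2 had among the largest changes after IL-1β, and Col10a1 and Col8a2 are the members whose response differed between the siRNA groups. Capitals in Col27a1 (chr4:63215162-63215411, plus strand) mark a match to the NF-kB consensus, which starts 183 bases before the start, and a GC box (GGGCGG on either strand) 85 bases before it. GENCODE begins Col27a1 earlier, at base 63214004 of chromosome 4, so this window lies inside the gene as annotated there. Capitals in Col8a2 (chr4:126286544-126286793, plus strand) mark 4 GC boxes, the last 2 of which overlap. Capitals in Col10a1 (chr10:34389731-34389980, plus strand) mark a TATA box (TATAAA) that begins 32 bases before the start.
Col27a1: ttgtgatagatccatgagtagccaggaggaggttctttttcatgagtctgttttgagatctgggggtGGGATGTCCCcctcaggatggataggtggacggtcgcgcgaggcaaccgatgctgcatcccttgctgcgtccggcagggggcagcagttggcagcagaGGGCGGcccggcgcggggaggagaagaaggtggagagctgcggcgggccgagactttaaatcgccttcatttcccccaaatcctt
Col8a2: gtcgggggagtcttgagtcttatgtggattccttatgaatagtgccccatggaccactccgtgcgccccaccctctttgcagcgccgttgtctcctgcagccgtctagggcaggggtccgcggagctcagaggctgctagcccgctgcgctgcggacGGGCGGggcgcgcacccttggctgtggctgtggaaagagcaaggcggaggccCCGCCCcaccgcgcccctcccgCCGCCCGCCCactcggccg
Col10a1: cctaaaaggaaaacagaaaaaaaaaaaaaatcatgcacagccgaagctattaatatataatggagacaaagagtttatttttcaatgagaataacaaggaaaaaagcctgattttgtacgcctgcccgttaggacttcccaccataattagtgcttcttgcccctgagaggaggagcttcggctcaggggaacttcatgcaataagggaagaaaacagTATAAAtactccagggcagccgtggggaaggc
Of the members, 35 had a RefSeq promoter window of 250 bases before to 50 after a start. On either strand, GGGCGG was in 62.9% of their windows and in 38.2% of the windows of 27025 genes, TATAAA in 14.3% and 15.7%, and CCAAT in 37.1% and 41.1%. The AP-1 motif TGANTCA was in 2.9% of member windows, that of Col6a1 only, and in 9.0% of all. The NF-kB consensus was in 11.4%, those of Col27a1, Col6a4, Col9a1 and Col9a2, and in 5.1% of all. A match is a description of letters and not evidence of a bound site.

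The levels of the members, as the mean TPM of all 36 libraries, differed widely. Col1a2, the α2 chain of type I collagen, was highest with a mean of 767 TPM, from 414 to 1010 over libraries, and Col5a2, the α2 chain of type V, followed with 751 TPM, from 529 to 893. These ranges overlap and pool 12 conditions. In total counts over all libraries Col5a2 was higher, at 2458924 against 2089032, so their order depends on the quantification. Next came Col6a1 at 482 TPM, Col3a1 at 257, Col4a1 at 245, Col6a2 at 211, Col6a3 at 177 and Col12a1, a FACIT, at 171 TPM. The next 8 were Col5a1 (161), Col4a5 (143), Col8a1 (123), Col4a2 (119), Col1a1 (88.1), Col16a1 (81.4), Col18a1 (61.7) and Col11a1 (50.7 TPM). None of the other 28 members had a mean over 10.7 TPM, the level of Col10a1. Col2a1, the chain of the main cartilage collagen, had a mean of 3.58 TPM and a highest value of 9.05 TPM. From 1 to 8 TPM were also Col8a2, Col5a3, Col9a3, Col11a2, Col26a1, Col4a6, Col7a1, Col20a1, Col27a1, Col24a1 and Col4a4, and below 1 TPM were Col4a3, Col22a1, Col17a1, Col6a4, Col28a1, Col9a2, Col15a1, Col23a1, Col14a1, Col6a5, Col25a1, Col19a1, Col6a6, Col13a1 and Col9a1. Col26a1 had a mean of 3.16 TPM with no more than 28 counts in any library, so the 2 quantifications rank it differently.

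**Figure D1:**
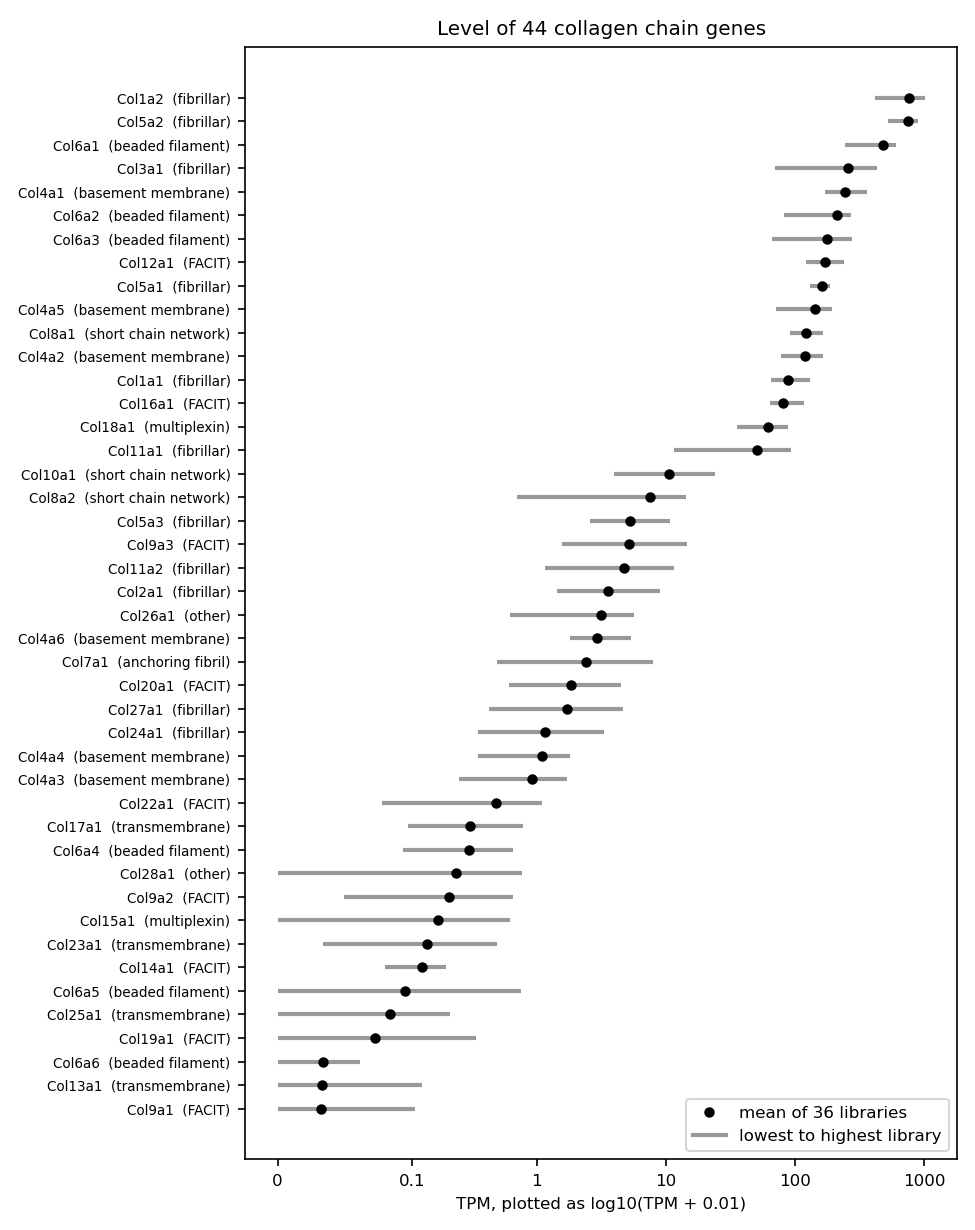
Level of each of the 44 collagen chain genes in TPM (x axis, drawn as log10(TPM + 0.01)), with its class in brackets; points are means of 36 libraries and bars run from the lowest to the highest library. The 16 genes from Col1a2 to Col11a1 had means of 50.7 TPM or more, and Col9a1 was lowest.

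Chains of 1 collagen did not have equal levels. Type I collagen is usually built with more α1 than α2 chains, yet the TPM of Col1a2 was 5.26 to 14.0 times that of Col1a1 in the 36 libraries, with a median of 8.51. In NT the ratio was 6.24 ± 0.157 (SD, n = 3) at 0 h, 11.9 ± 0.561 at 2 h and 5.38 ± 0.109 at 24 h. From the counts, as CPM per kilobase of merged exons, the median ratio was 4.04, from 2.52 to 6.87, so the size of the excess depends on the quantification while its direction does not. The ratio of Col4a1 to Col4a2 was between 1.75 and 2.37 (median 2.05), and that of Col6a1 to Col6a2 between 1.94 and 3.04 (median 2.30). That of Col5a2 to Col5a1 was between 3.63 and 5.29 (median 4.81). In NT it was 5.14 ± 0.0633 at 0 h and 3.75 ± 0.042 at 24 h. The ratio of Col6a3 to Col6a2 was between 0.614 and 1.12 (median 0.827). At 0 h it was 0.847 ± 0.041 in NT and 0.656 ± 0.0423 in IFT88siRNA, and at 4 h 1.01 ± 0.0583 and 0.998 ± 0.129.

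Together the members took 1.28% ± 0.031 (SD, n = 3) of all counts in NT at 0 h, 1.53% ± 0.051 at 2 h and 0.926% ± 0.0296 at 24 h. In IFT88siRNA the shares were 1.32% ± 0.0431, 1.45% ± 0.0194 and 0.944% ± 0.0268. In both groups the 3 libraries at 24 h lay below those at 0 h. Such a share is relative to the counts of all other genes, and the amount of collagen mRNA per cell was not measured. Whether fewer cells expressed these genes or each cell expressed less cannot be told apart in bulk samples.

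The first question was which collagen genes IL-1β changed in NT cells. After filtering on low counts, 34 of 44 members were tested, and the 10 left out (Col6a5, Col6a6, Col9a1, Col9a2, Col13a1, Col14a1, Col15a1, Col19a1, Col22a1 and Col25a1) had at most 23 counts in any library. A gene was called with a Benjamini-Hochberg adjusted p under 0.05 from the quasi-likelihood F-test of edgeR and a fold change over 1.5. Over the 5 time points together, 28 of 34 members were called, where 50.0% of all 16048 genes tested were. Col28a1 passed the filter only through the later libraries, where it was high, and Col17a1, Col23a1 and Col26a1 had at most 28 counts in any library, so calls on these 4 rest on few reads. The comparisons at the 5 times share the 0 h libraries.

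Members rose and fell at each time. At 1 h, 7 of 34 members rose (9.22% of all genes tested) and 5 fell (9.45% of all). At 2 h, 13 rose (13.0% of all) and 7 fell (14.3% of all). At 4 h, 13 rose again (16.3% of all) and 6 fell (12.4% of all). At 8 h the numbers were equal, with 9 risen (11.8% of all) and 9 fallen (7.87% of all). At 24 h, 1 member rose (6.61% of all genes did), the sparsely read Col28a1, which is also among those risen at 4 and 8 h, and 18 members fell, 52.9% of those tested against 9.71% of all genes. The median log2 change of the members was 0.11, 0.30, 0.20 and 0.05 at 1, 2, 4 and 8 h and -0.71 at 24 h, and that of all genes was between -0.02 and -0.01. The falls at 24 h were spread over classes: 6 of 11 fibrillar, 4 of 6 basement membrane, 3 of 4 tested beaded filament, 2 of 3 short chain network and 2 of 4 tested FACIT genes fell, and Col7a1, the anchoring fibril chain, fell as well.

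**Figure D2:**
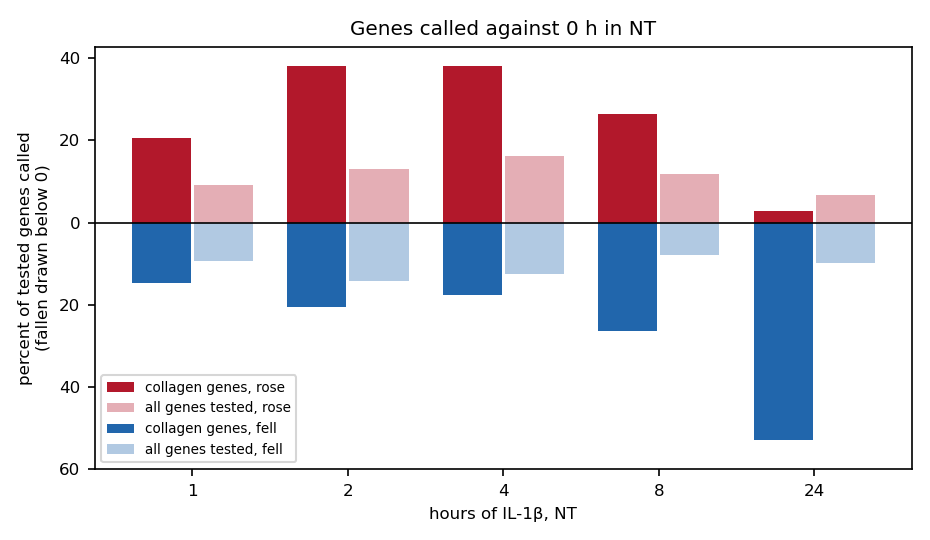
Percent of the 34 tested collagen genes (dark bars) and of all 16048 genes tested (pale bars) that rose (above 0) or fell (drawn below 0) at each time of IL-1β in NT. The share of collagen genes fallen at 24 h was 52.9%, against 9.71% of all genes.

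Col3a1, the chain of type III collagen (chr1:45311538-45349706 on GRCm38, plus strand), was among the most abundant members that changed. Its CPM in the 3 NT libraries was 282, 287 and 263 at 0 h, 925, 837 and 882 at 1 h, 928, 855 and 883 at 2 h, 793, 671 and 708 at 4 h, 573, 510 and 534 at 8 h and 198, 180 and 160 at 24 h. Every library from 1 to 8 h lay above every library at 0 h, and every library at 24 h lay below. The log2 change was 1.68 ± 0.0671 (SE) at 2 h (edgeR, adjusted p = 1.42e-16), a 3.19-fold rise, and -0.63 ± 0.0669 at 24 h (edgeR, adjusted p = 2.88e-08). Col1a2 had the same order on a smaller scale, with 2200, 2170 and 2040 CPM at 0 h, 3450, 3340 and 3100 at 2 h and 1360, 1310 and 1210 at 24 h. It rose 1.54-fold at 2 h and fell 1.65-fold at 24 h (edgeR, adjusted p = 1.23e-10 and 1.21e-11), and its libraries did not overlap between these times. Its partner Col1a1 was called at no time: its log2 change was -0.28 ± 0.05 at 1 h and -0.47 ± 0.05 at 24 h, under the fold threshold. Col5a1 and Col5a2, which make type V collagen and are found inside type I fibrils, were not called either. Col5a2 was at 2950, 2910 and 2870 CPM at 0 h, 3650, 3490 and 3420 at 2 h and 2170, 2140 and 2030 at 24 h, a log2 change of -0.46 ± 0.039 at 24 h, while the log2 changes of Col5a1 were between 0.01 and 0.35.

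The minor fibrillar chains were less alike. Col5a3, the third type V chain, went from 8.28, 8.58 and 9.27 CPM at 0 h to 36.9, 39.2 and 40.3 at 4 h and 34, 34.3 and 35.9 at 8 h, and was back to 11.9, 13.1 and 13.4 at 24 h. It rose 4.49-fold at 4 h (edgeR, adjusted p = 2.48e-17) and 4.01-fold at 8 h, with libraries at both times above all others. Col27a1, a fibrillar collagen of developing cartilage whose promoter is printed above, was at 3.34, 3.59 and 2.66 CPM at 0 h, 3.04, 3.91 and 3.89 at 1 h, 5.37, 4.10 and 5.51 at 2 h, 13.4, 15.2 and 15.4 at 4 h, 4.01, 4.01 and 4.37 at 8 h and 1.27, 1.41 and 1.63 at 24 h. The 4 h libraries stood far above those 2 h before and 4 h after, a 4.59-fold rise over 0 h (edgeR, adjusted p = 1.04e-13), and at 24 h the gene had fallen 2.22-fold. Col24a1, a related chain of developing bone, did not rise and was at 7.06, 5.57 and 5.63 CPM at 0 h and 1.53, 1.23 and 2.27 at 24 h, 3.59-fold lower (edgeR, adjusted p = 1.93e-08).

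The chains of cartilage collagens went different ways. Col2a1 was at 21.8, 18 and 19.6 CPM at 0 h and 7.48, 7.81 and 8.86 at 1 h, a 2.46-fold fall (edgeR, adjusted p = 1.61e-11). Its mean was 8.76 CPM at 2 h, 10.8 at 4 h, 11.5 at 8 h and 10.3 at 24 h, and it was called lower at all 5 times. Col9a3, a chain of the FACIT that coats type II fibrils, also fell at all 5 times, from 8.58, 7.67 and 7.63 CPM at 0 h to 2.24, 2.78 and 2.89 at 2 h, 3.01-fold lower. Of its exonic bases, 6.073% overlap Tcfl5 on the other strand, and counting was without strand. Col9a1 had at most 3 counts in any library and Col9a2 at most 9, so neither was tested and no change in them was detectable at this depth. Col11a1, the α1 chain of type XI collagen inside type II fibrils, rose instead, from 167, 178 and 161 CPM at 0 h to 426, 395 and 379 at 2 h, and then was at 142, 136 and 129 at 8 h and 50.6, 51.5 and 47.0 at 24 h. Its changes were a 2.37-fold rise at 2 h and a 3.39-fold fall at 24 h (edgeR, adjusted p = 4.07e-15 and 2.51e-17), and none of these sets of libraries overlap. Col11a2, its partner chain, was at 7.86, 6.68 and 7.10 CPM at 0 h, 5.06, 4.15 and 4.44 at 2 h, 22.3, 21.6 and 26.4 at 4 h, 21.6, 23.5 and 26.2 at 8 h and 4.41, 6.02 and 6.13 at 24 h. It fell 1.59-fold at 2 h and rose 3.31-fold at 8 h (edgeR, adjusted p = 0.000135 and 7.29e-13), so that at 4 and 8 h it was high where its partner was not called.

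Type X collagen, which marks hypertrophic chondrocytes, fell at every time. Col10a1 was at 39.1, 39 and 36 CPM at 0 h, 24.2, 23.3 and 24.5 at 1 h, 19.7, 18.7 and 20.4 at 8 h and 9.91, 8.03 and 9.59 at 24 h. The fall was 1.59-fold at 1 h and 4.14-fold at 24 h (edgeR, adjusted p = 2.73e-09 and 5.58e-18), with no overlap of either time with 0 h. The related network chains of type VIII, made by endothelium and other cells, were split. Col8a2 rose from 11.5, 11.1 and 11.3 CPM at 0 h to 31.8, 29.5 and 29.4 at 4 h and was at 2.84, 2.75 and 1.69 at 24 h, a 2.69-fold rise and a 4.67-fold fall (edgeR, adjusted p = 9.32e-12 and 2.63e-12). That fall was the largest of any member in NT. Col8a1, with a mean of 123 TPM against 7.61 for Col8a2, fell at 8 h (log2 change -0.62 ± 0.041, a call lost without replicate 2 at -0.57) and was at -0.56 ± 0.041 at 24 h, under the fold threshold.

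The type IV chains are described by their divergent pairs. The overlapping starts of Col4a1 and Col4a2 and the stretch between Col4a3 and Col4a4 are printed above. Col4a1 was at 621, 615 and 595 CPM at 0 h, 651, 634 and 649 at 1 h, 1010, 933 and 1010 at 2 h, 1390, 1350 and 1380 at 4 h, 1180, 1110 and 1180 at 8 h and 680, 644 and 610 at 24 h. Col4a2 was at 348, 342 and 335 CPM at 0 h, 669, 628 and 669 at 4 h and 346, 325 and 318 at 24 h. At 4 h, Col4a1 rose 2.26-fold and Col4a2 1.93-fold (edgeR, adjusted p = 1.08e-17 and 1.96e-15), and at 24 h their log2 changes were 0.08 ± 0.042 and -0.05 ± 0.044, neither of them called. Both were thus highest at 4 h. Col4a3 and Col4a4 had means of only 0.916 and 1.10 TPM and their highest levels at 2 h. Col4a3 was at 3.38, 3.34 and 3.02 CPM at 0 h, 6.73, 6.29 and 6.8 at 2 h and 1.16, 1.19 and 1.59 at 24 h, and Col4a4 was at 6.17, 6.14 and 6.43, at 11.9, 9.07 and 10.2 and at 2.13, 2.27 and 1.59. Both rose at 2 h, 2.03-fold and 1.66-fold, and fell at 24 h, 2.45-fold and 3.14-fold (edgeR, adjusted p = 2.53e-07 and 8.18e-10 at 24 h). Of the exonic bases of Col4a3, 5.649% overlap a non-coding transcript on the other strand. Col4a5 and Col4a6 fell at 24 h with log2 changes of -1.01 ± 0.042 and -1.05 ± 0.093, and Col4a6 was called lower at 4 h too (-0.67 ± 0.095, a call lost without replicate 1 or 3 at -0.58). At 8 h, 2 of the 6 type IV genes were called higher and 3 lower, with a lowest log2 change of -1.15. Col4a4 was among these 3, a call lost without replicate 3 at -0.53.

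The chains of type VI collagen had a like course. Col6a1 was at 962, 933 and 924 CPM at 0 h, 1660, 1540 and 1580 at 2 h and 601, 608 and 592 at 24 h. Col6a2, its neighbour on chromosome 10, was at 371, 368 and 357 CPM, at 701, 661 and 671 and at 209, 210 and 188 at these times. Col6a3, on chromosome 1, was at 511, 494 and 457 CPM at 0 h, 886, 815 and 836 at 2 h, 1010, 971 and 1050 at 4 h and 348, 277 and 279 at 24 h. Rises at 2 h were 1.69-fold, 1.85-fold and 1.73-fold and falls at 24 h 1.56-fold, 1.80-fold and 1.62-fold (edgeR, largest adjusted p of the 6 = 1.01e-08, for Col6a3 at 24 h), and in each gene the libraries at 0, 2 and 24 h did not overlap. Col6a4, at most 58 counts, rose at 4 and 8 h (log2 change 1.10 ± 0.33 and 1.12 ± 0.32, the latter lost without replicate 3 at 0.68).

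**Figure D3:**
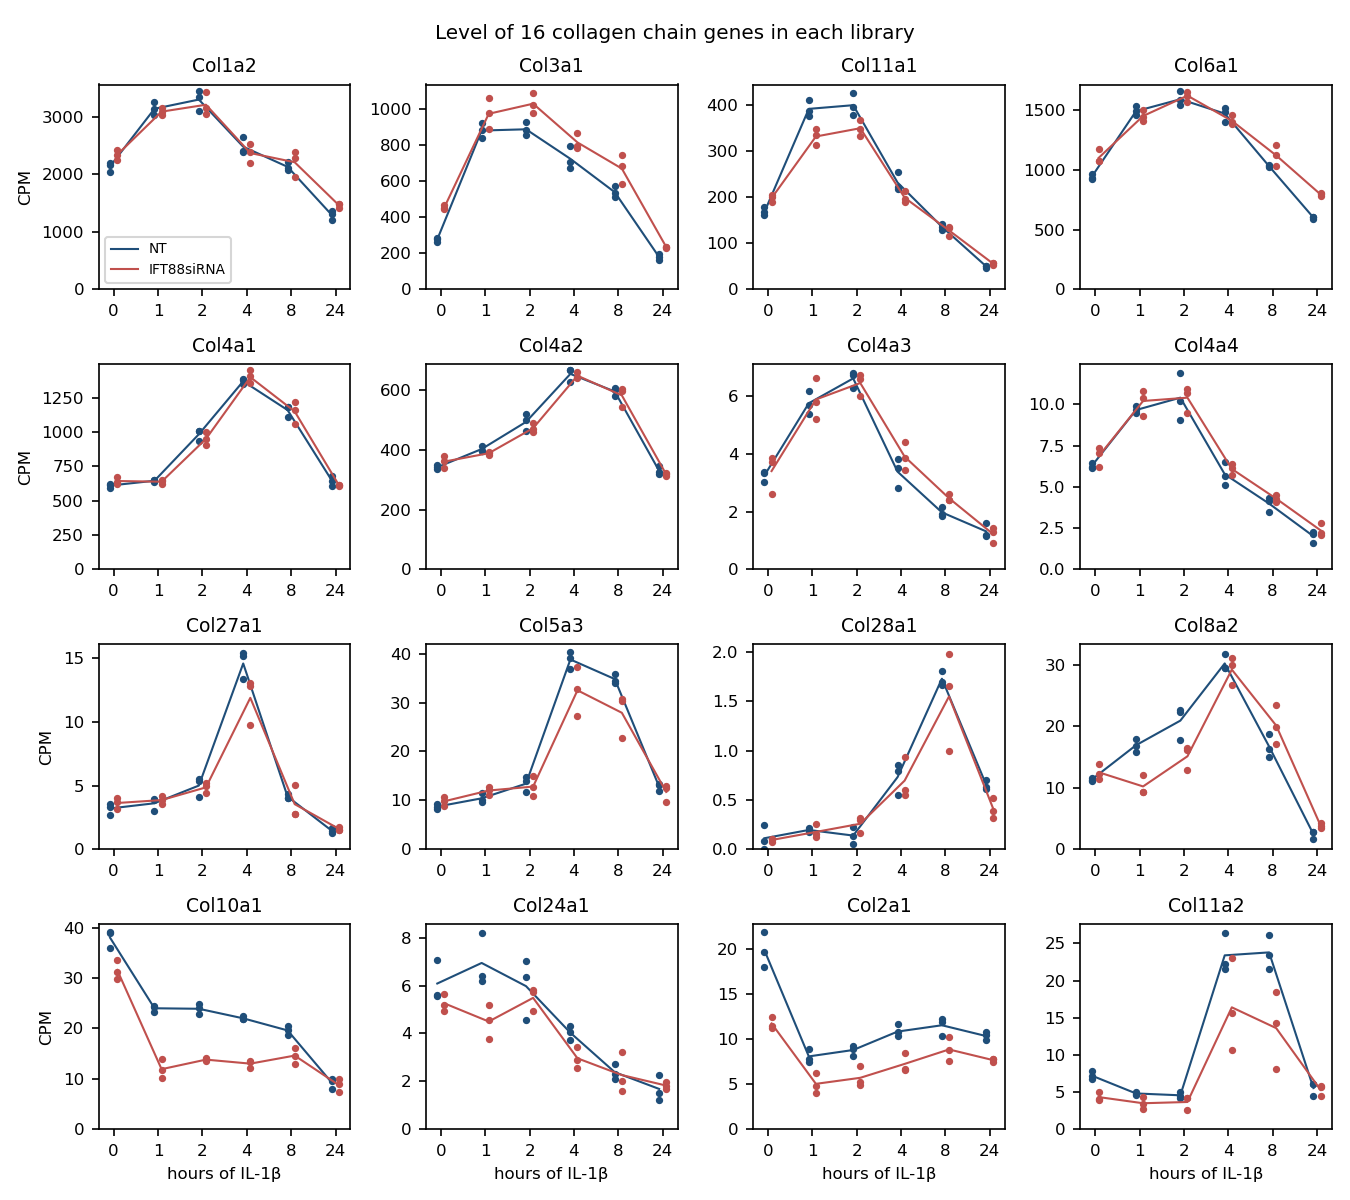
CPM (y axis, from 0) of 16 collagen chain genes at 0, 1, 2, 4, 8 and 24 h of IL-1β (x axis, evenly spaced) in each NT (blue) and IFT88siRNA (red) library; points are libraries and lines join the means of 3. Col4a1 and Col4a2 were highest at 4 h, Col4a3 and Col4a4 at 2 h, Col28a1 at 8 h, and Col10a1 was lower in IFT88siRNA at 1 to 4 h.

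Of the remaining members, Col28a1, a collagen with von Willebrand A domains, was nearly unread at 0 h. Its counts in NT were only 2, 6 and 0 at 0 h, 14, 12 and 16 at 4 h, 35, 41 and 46 at 8 h and 17, 19 and 18 at 24 h, a fitted log2 change of 3.87 ± 0.40 at 8 h. That value is the largest fitted among the members, but it depends on how the few reads at 0 h are handled, and the gene was tested only because it was high later. Col12a1, a FACIT of tendon and ligament, was at 720, 750 and 682 CPM at 0 h, 1460, 1520 and 1270 at 2 h and 1200, 852 and 911 at 24 h. It rose from 1 to 8 h, 1.97-fold at 2 h (edgeR, adjusted p = 2.08e-09). The call at 4 h was lost without replicate 3 and with no filter on low counts (0.57 and 0.58), and at 24 h its log2 change was 0.46 ± 0.092, under the fold threshold. Col18a1, the source of endostatin, fell at 1 and 2 h (log2 change -0.95 ± 0.056 and -0.65 ± 0.056) and was not called after. The call at 2 h was lost without replicate 1, at -0.58. Col7a1 fell at 2, 8 and 24 h, Col23a1 at 2 and 4 h, and Col20a1 at 24 h only, while Col26a1 rose at 8 h only. Of these, the calls of Col7a1 at 2 h and Col23a1 at 4 h were lost without replicate 2 (log2 changes then -0.39 and -1.49). Those of Col23a1 at 2 h and Col26a1 at 8 h were lost without replicate 2 (-1.47 and 0.91) and also without replicate 3 (-0.95 and 0.89). DESeq2 did not call Col23a1 at 2 h either (log2 change -1.37, adjusted p = 0.066). Col16a1 and Col17a1 were called at no time, with largest log2 changes of -0.42 ± 0.044 and -0.93 ± 0.39.

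In IFT88siRNA cells the same comparison called 29 of 36 tested members over the time course, where 48.2% of all genes tested were called. At 24 h, 18 of 36 fell, which was 50.0% against 7.87% of all genes. Col3a1 rose 2.26-fold at 2 h and fell 1.94-fold at 24 h, from 469, 447 and 450 CPM at 0 h to 1090, 980 and 1020 and then to 236, 237 and 232. At 4 h, Col4a1 rose 2.19-fold, from 621, 669 and 639 CPM to 1360, 1450 and 1410. Col27a1 rose 3.28-fold, from 3.72, 4.05 and 3.14 to 12.8, 9.74 and 13.1 CPM, and Col5a3 3.32-fold, from 9.92, 10.6 and 8.93 to 32.8, 27.3 and 37.3 CPM. As in NT, the libraries at 0 and 4 h did not overlap in these 3 genes. Col8a2 fell 3.23-fold at 24 h. Col28a1 went from counts of 3, 2 and 3 at 0 h to 44, 48 and 29 at 8 h, and Col26a1 fell at 1, 2 and 4 h on counts of at most 16. Col6a1, called in NT, had a log2 change of 0.55 ± 0.053 at 2 h and -0.47 ± 0.053 at 24 h here, under the fold threshold, and its response was not called different between the groups. Col14a1 and Col22a1, which were not tested in NT, were not called.

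**Figure D4:**
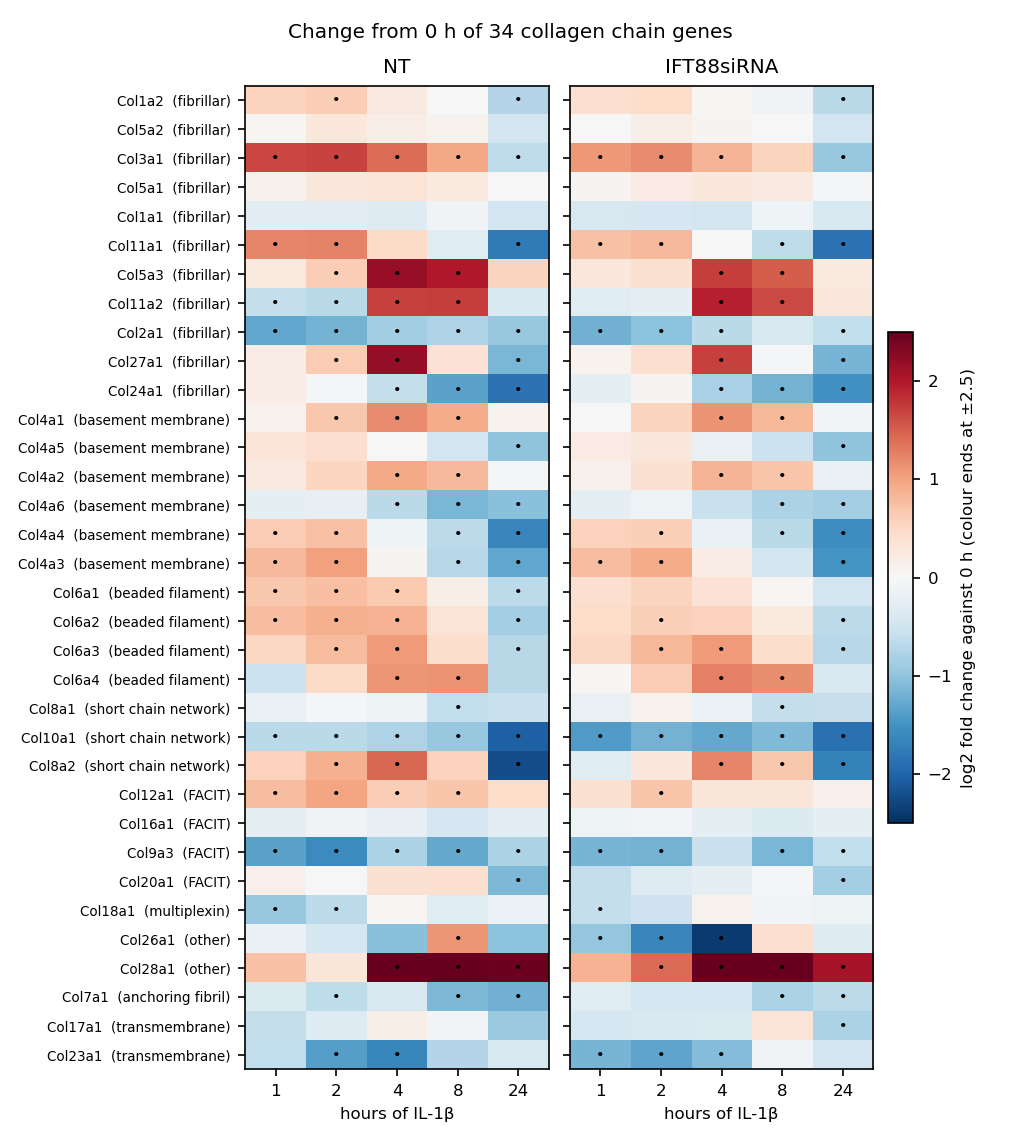
Log2 fold change against 0 h (colour, red higher and blue lower, ending at 2.5 either way) of the 34 collagen genes tested in NT, by hours of IL-1β, in NT (left) and IFT88siRNA (right); dots mark calls (adjusted p under 0.05, fold over 1.5). In NT, 18 genes are called lower at 24 h; colours of Col28a1 exceed the scale.

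The next question was whether depletion of IFT88 changed collagen levels. Over the 6 times together, 8 of 36 members differed between IFT88siRNA and NT, where 5.19% of all genes tested did. Of these, 7 had their largest difference downward (Col2a1, Col8a2, Col10a1, Col11a2, Col20a1, Col24a1 and Col26a1) and 1 upward (Col3a1). By time, 3 of 33 members were called at 0 h (2.23% of all genes tested), 5 of 31 at 1 h (2.66% of all), 2 of 32 at 2 h (0.496% of all), 3 of 32 at 4 h (0.432% of all), 0 of 33 at 8 h (0.692% of all) and 1 of 33 at 24 h (1.15% of all). Without replicate 1 the count was 0 at 2 h, 1 at 4 h and 2 at 24 h. Without replicate 2 or replicate 3 it was 0 at 24 h, and without replicate 3 it was 2 at 8 h. At 8 h edgeR gave 9 of the 33 an unadjusted p under 0.05, as it did 21.1% of all genes, and DESeq2 called 1 member, Col20a1. The medians of the members' log2 differences were between -0.14 and -0.02 at the 6 times and those of all genes were 0.

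Col2a1 was lower in IFT88siRNA before and after IL-1β. At 0 h it was at 21.8, 18 and 19.6 CPM in NT and at 12.4, 11.2 and 11.4 in IFT88siRNA, a log2 difference of -0.76 ± 0.0791 (edgeR, adjusted p = 3.52e-07). At 1 h the values were 7.48, 7.81 and 8.86 against 4.04, 6.2 and 4.77 CPM, and at 4 h 10.3, 10.7 and 11.6 against 6.63, 6.58 and 8.45 CPM. The groups did not overlap at these times. It was called at 0, 1, 2 and 4 h, and at 8 and 24 h the log2 differences were -0.39 ± 0.123 and -0.45 ± 0.0827. Its call was lost without replicate 3 at 1 h and without replicate 1 at 2 h. At 4 h it was lost without replicate 1 or 2, with no filter on low counts or with all libraries in 1 model. The log2 differences were then from -0.50 to -0.58. Without replicate 1 the adjusted p was 0.557 at 2 h and 0.197 at 4 h (edgeR), and in the other cases it stayed under 0.05.

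Col10a1 differed little at 0 h and more after IL-1β. At 0 h it was at 39.1, 39 and 36 CPM in NT and 33.6, 31.3 and 29.8 in IFT88siRNA, a log2 difference of -0.27 ± 0.058, under the fold threshold. At 1 h it was at 24.2, 23.3 and 24.5 CPM against 11.8, 10.1 and 13.9, at 2 h at 22.9, 24.1 and 24.8 against 13.9, 13.5 and 14.1, and at 4 h at 21.8, 22.4 and 21.8 against 13.5, 13.4 and 12.2. These groups did not overlap, and the log2 differences were -1.02 ± 0.091, -0.80 ± 0.0711 and -0.77 ± 0.0776 (edgeR, adjusted p = 2.05e-06, 0.000238 and 2.82e-05), the call at 2 h being lost without replicate 1 (adjusted p = 0.0572). At 24 h, with 9.91, 8.03 and 9.59 CPM against 9.98, 8.88 and 7.28, the groups overlapped.

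Col8a2 went from lower to higher. At 1 h it was at 17.9, 15.8 and 16.8 CPM in NT and 9.22, 9.23 and 12.1 in IFT88siRNA, a log2 difference of -0.73 ± 0.0993 (edgeR, adjusted p = 0.000136), and at 4 h the groups overlapped. At 24 h it was at 2.84, 2.75 and 1.69 CPM in NT and 3.52, 4.27 and 3.72 in IFT88siRNA, a log2 difference of 0.68 ± 0.174 (edgeR, adjusted p = 0.0236), a call that was lost without replicate 2 or without replicate 3 (adjusted p = 0.175 and 0.0722, edgeR).

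The other members called were fibrillar, FACIT or of another class. Col3a1 was higher in IFT88siRNA at 0 h, with 469, 447 and 450 against 282, 287 and 263 CPM (log2 difference 0.71 ± 0.0411, edgeR, adjusted p = 1.22e-10). From 1 to 24 h its log2 difference was between 0.14 and 0.39, and no further time was called. Col11a2 was lower at 0 h, with 3.95, 5 and 3.99 against 7.86, 6.68 and 7.10 CPM (-0.74 ± 0.116), and at 8 h its log2 difference was -0.82 ± 0.216 (edgeR, adjusted p = 0.0577), with 14.3, 8.07 and 18.4 against 21.6, 23.5 and 26.2 CPM, groups that did not overlap. Col20a1, a FACIT, was lower at 1 h, with 2.1, 2.95 and 2.76 against 4.86, 5.86 and 6.2 CPM (-1.12 ± 0.151), and at 4 h (-1.02 ± 0.189, a call lost without replicate 1). Col24a1 was lower at 1 h, with 3.75, 4.56 and 5.18 against 6.19, 6.42 and 8.22 CPM (-0.63 ± 0.14). Col26a1 was called over all times (edgeR, adjusted p = 0.0445) but at no single time of the 2 at which it was tested alone, and had at most 28 counts. Its counts at 4 h, where the fitted log2 difference was largest (-1.24 ± 0.652), were 5, 4 and 4 in NT and 1, 2 and 3 in IFT88siRNA. At 0 h they were 16, 10 and 7 against 16, 16 and 11, at 1 h 5, 11 and 10 against 4, 8 and 7, and at 2 h 3, 7 and 12 against 3, 4 and 4. At 8 h they were 18, 26 and 27 against 13, 12 and 28, and at 24 h 6, 3 and 10 against 13, 16 and 10. The counts of the groups overlapped or met at every time but 4 h, and the call rests on few reads. Col9a1 was at 0 to 3 counts in every library of both groups, so no difference was detectable at this depth. Col1a2 and Col5a2, the members with the highest mean TPM, were not called at any time. At 0 h, Col1a2 was at 2340, 2420 and 2250 CPM in IFT88siRNA and 2200, 2170 and 2040 in NT. Col5a2 was at 2730, 2800 and 2750 CPM against 2950, 2910 and 2870. At 24 h, Col6a1 and Col6a2 were higher in IFT88siRNA, with log2 differences of 0.40 ± 0.046 and 0.46 ± 0.0511, under the fold threshold. That of Col6a3 was -0.09 ± 0.0728.

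**Figure D5:**
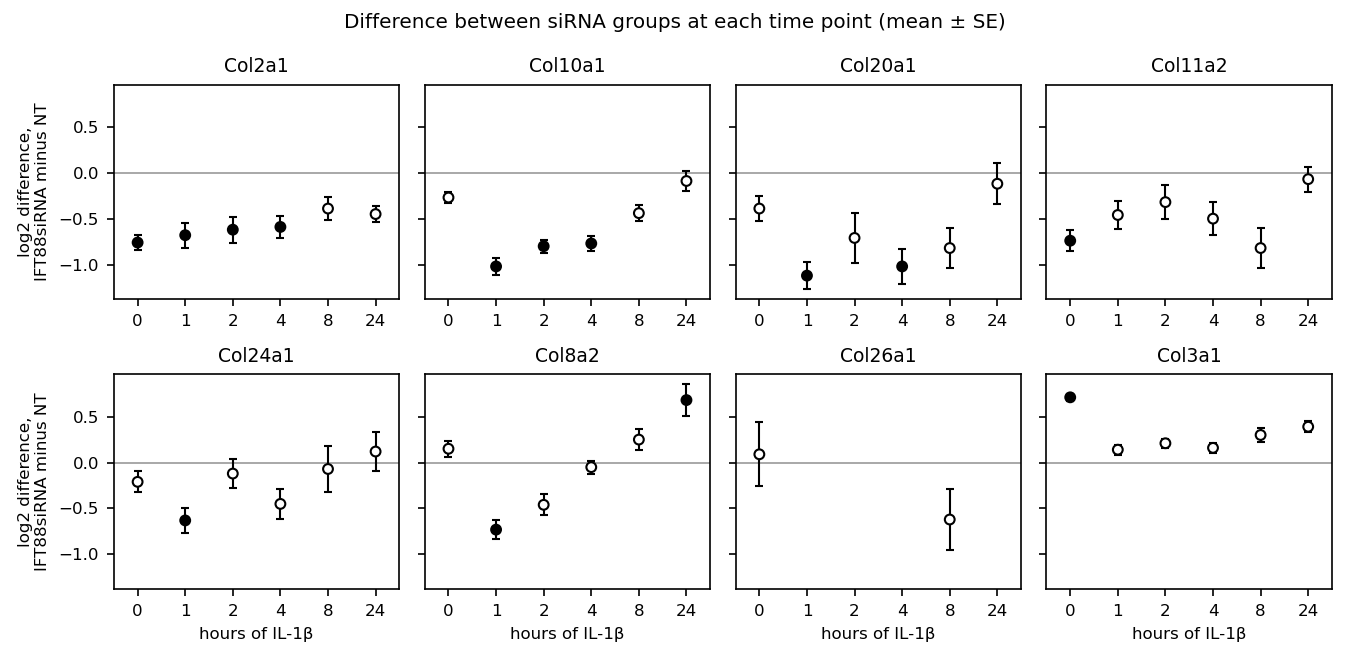
Log2 difference between IFT88siRNA and NT (y axis, mean ± SE of 3 against 3 libraries, edgeR) at each time (x axis, hours of IL-1β) for the 8 collagen genes called over the time course; filled points were called at that time, and Col26a1 was tested only at 0 and 8 h. Col2a1 lies below 0 at all 6 times and Col8a2 crosses from below 0 at 1 h to above 0 at 24 h.

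The change from 0 h itself differed between the siRNA groups for 2 of 36 members, Col8a2 and Col10a1, where 1.20% of all genes tested were called. At 1 h, Col10a1 fell 1.59-fold in NT and 2.66-fold in IFT88siRNA, a difference in log2 change of -0.74 ± 0.122 (edgeR, adjusted p = 0.000299). At the same time, the log2 change of Col8a2 was 0.57 ± 0.11 in NT and -0.31 ± 0.13 in IFT88siRNA, neither of them called, with a difference of -0.88 ± 0.178 (edgeR, adjusted p = 0.00324). Without replicate 1 neither was called at 1 h alone (log2 -0.70 and -0.71, adjusted p = 0.0901 and 0.295, edgeR), while both were still called over all times. At the other times neither gene was called, with differences of -0.52 ± 0.121 at 2 h and -0.49 ± 0.123 at 4 h for Col10a1 under the fold threshold. Col3a1, which rose 3.17-fold in NT and 2.13-fold in IFT88siRNA at 1 h, lay just under that threshold, with a difference of -0.57 ± 0.103 (edgeR, adjusted p = 0.000923).

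The genes that modify, export, cleave, cross-link and bind collagen were taken as a list of 43, of which 40 were tested. Over the time course in NT, 21 of 40 were called, 52.5% against the 50.0% of all genes. At 24 h, 7 of these 40 fell, 17.5% against 9.71% of all genes, and 5 rose, 12.5% against 6.61%. Of the lysyl oxidases, which cross-link collagen, 4 of 5 rose at 2 h, where 13.0% of all genes did. Lox had log2 changes of 1.37 ± 0.0628, 1.83 ± 0.0636, 1.71 ± 0.0634, 1.51 ± 0.063 and 1.09 ± 0.0624 from 1 to 24 h, all called, and Loxl2 was also called higher at all 5 times, with 1.77 ± 0.109 at 4 h. P4ha2, a prolyl hydroxylase subunit that stabilises the helix, rose at all 5 times (1.15 ± 0.0501 at 24 h), and Plod3, a lysyl hydroxylase, rose from 4 h on. Serpinh1, the collagen chaperone, was not called, with log2 changes between -0.13 and 0.35. Creb3l1, a transcription factor for collagen genes and their export, rose 6.46-fold at 4 h, and Tll1, which removes propeptides, rose 6.31-fold (edgeR, adjusted p = 2.84e-21 and 4.90e-12). Of 7 receptors, 3 fell at 24 h, where 9.71% of all genes did, among them Itga2, the α2 integrin chain, by 4.45-fold. Adamts14, a procollagen protease, fell 6.76-fold at 24 h in NT. It was the single gene of the list called between the siRNA groups over the time course, 2.5% of those tested against 5.19% of all genes. Adamts14 was higher in IFT88siRNA at 24 h with a log2 difference of 1.20 ± 0.262 (edgeR, adjusted p = 0.00211 in the fit of all libraries). Its call over the time course was lost without replicate 1 or replicate 2. Tested time by time, 1 of the 40 genes was called at 4 h (0.432% of all genes tested) and 1 at 24 h (1.15% of all). The gene at 24 h was Adamts14. The gene at 4 h was Itga11, an integrin chain, lower in IFT88siRNA by a log2 difference of -0.59 ± 0.0813 (edgeR, adjusted p = 0.000553). At 1 h that difference was -0.54 ± 0.0738, under the fold threshold.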

How the data were processed

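Poly(A) RNA was sequenced as paired-end reads. The authors aligned the reads to GRCm38 with HISAT2 2.1.0 and deposited whole-number counts of reads per gene from featureCounts (Subread 1.6.3, default parameters, hence without strand, and reads shared by overlapping genes not assigned), not normalized. TPM per gene, made by the authors with Salmon 0.9.1, were deposited as well. Groups came from the sample labels. Total counts were 19337022 to 38304127 per library.

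Counts were tested in R 4.3.3 with edgeR 4.0.16 (TMM, filterByExpr, two-sided quasi-likelihood F-tests, Benjamini-Hochberg adjustment over all genes tested): each time against 0 h and all 5 times together within the 18 libraries of a siRNA group, IFT88siRNA against NT with 3 libraries a side at each time, and in all 36 libraries the 6 siRNA differences and the 5 differences in response. Calls needed an adjusted p under 0.05 and a fold over 1.5, for joint tests at 1 or more times. The standard error is the log2 change over the square root of its F-statistic. CPM used TMM scaling over all 36 libraries. Tests were checked on simulated data. Coordinates came from GENCODE M21 and promoter windows from RefSeq, both on GRCm38.

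Alternatives were DESeq2 1.42.0, its size factors, no filter on low counts, no fold threshold, all 36 libraries in 1 model, the replicate number as a block, leaving out each replicate, and limma 3.58.1 on log2(TPM + 1) (1 TPM in 3 libraries) or log2(TPM + 0.1) and without that filter. Members and lists were chosen with earlier results of these data known. Values per library are given for the 8 members with the highest mean TPM, the 3 largest rises and 3 largest falls called at 1 time in NT, those called between siRNA groups or in the response, and Col2a1, Col9a1, Col10a1 and Col11a1. Values of Col1a1, Col4a2, Col4a3, Col4a4 and Col9a3, partners or relatives of these, were added after they were seen.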

Additional observations from a re-analysis of the deposited data

Results flagged for a closer look

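The response to IL-1β differed between the siRNA groups by an interaction test in 2 collagen genes. Over the 5 times together (edgeR, 36 libraries), the largest difference in log2 change from 0 h, IFT88siRNA minus NT, was -0.74 for Col10a1 (adjusted p = 3.08e-05) and -0.88 for Col8a2 (adjusted p = 5.79e-05), both at 1 h. In Col10a1 all 3 IFT88siRNA libraries at 1 h (10.1 to 13.9 CPM) lay below all 3 NT libraries (23.3 to 24.5 CPM), and in Col8a2 likewise (9.22 to 12.1 against 15.8 to 17.9 CPM). These are levels at 1 h and not changes from 0 h. At 0 h the log2 difference was -0.27 ± 0.058 for Col10a1 and 0.15 ± 0.0842 for Col8a2, both under the fold threshold. Part of the gap of Col10a1 at 1 h was thus present before IL-1β. At 1 h alone both calls were lost without replicate 1, with adjusted p of 0.0901 and 0.295 from edgeR. With 3 libraries a group, single libraries were not tested as outliers.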

How the results depend on the processing

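Of 830 recomputed log2 changes behind 104 calls of single members, 795 stayed called, 35 were no longer called and 0 changed direction, and 27 of those 35 came from leaving out a replicate. Without a fold threshold the NT counts were 14 risen and 9 fallen at 1 h, 15 risen at 8 h and 3 risen at 24 h. The counts between siRNA groups were then 13, 11, 5, 7, 2 and 6 at 0, 1, 2, 4, 8 and 24 h, 18 over the time course and 7 for the response, and those of the 40 machinery genes were 39 over the time course in NT and 24 between siRNA groups. The share of all genes called without a fold threshold was not computed. These counts therefore show only how the calls depend on the threshold, and not an effect particular to collagen or its machinery. Without a filter on low counts, 2 members rose at 24 h in NT, 2 differed between siRNA groups at 8 h, 4 had a different response, and 0 machinery genes differed between siRNA groups. DESeq2 called 1 member at 8 h, and all 36 libraries in 1 model called 2. DESeq2 and its size factors each called 2 machinery genes between siRNA groups. With limma on log2(TPM + 1), 5 members differed over the time course, 4 with a pseudocount of 0.1 and 4 without a filter. Between libraries with the same replicate number, deviations from condition means correlated at 0.0235 on average (range -0.263 to 0.444). Between different numbers the average was -0.0118, which largely follows from the first average because deviations sum to 0 within a condition. By the first average, replicate numbers did not pair the libraries on average, which does not exclude pairing in some conditions. With the replicate number as a block, 2 members were called at 8 h in place of 0, and the other counts were within 1.5 times.

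Leaving out each replicate in turn gave ranges, in NT, of 27 to 29 members over the time course, 7 to 8 risen and 5 to 6 fallen at 1 h, 12 to 13 and 5 to 6 at 2 h, 12 to 13 and 4 to 5 at 4 h, 8 to 10 and 8 to 9 at 8 h, and 1 to 2 and 18 to 20 at 24 h. Between siRNA groups the ranges were 3 to 4 at 0 h, 4 to 6 at 1 h, 0 to 3 at 2 h, 1 to 4 at 4 h, 0 to 2 at 8 h, 0 to 2 at 24 h and 6 to 9 over the time course, and 0 to 1 for machinery genes. The count of members fallen at 24 h in IFT88siRNA, a comparison added after seeing the data, ranged from 16 to 17. Members with few counts, such as Col9a1, Col23a1, Col26a1 and Col28a1, are limited by depth.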
